A study of Homo sapiens with 24 samples.

Results

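Aminoacyl-tRNA synthetases are the enzymes that join each amino acid to its transfer RNA (tRNA). The enzymes described here were chosen by gene symbol alone, from a list of 35 symbols of this enzyme family, and the rule uses no measured value, though the family was picked with earlier results of these data known. Of the 35 symbols, 34 were found among the 38735 named genes of the table, and QARS1 is not analysed here. All 34 had a mean normalized count of at least 10 over the 24 libraries and were tested, as were 13900 genes in all. The cytosolic group held 18 genes, namely FARSA, FARSB and the symbols ending in 1. The mitochondrial group held 16 genes, whose symbols end in 2.

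The libraries were poly-A RNA-seq libraries of THP-1, an established human monocytic leukaemia cell line. Cells of all 4 groups were first given the phorbol ester PMA at 100 nM for 24 h, an agent that turns THP-1 cells into adherent macrophage-like cells, so the Control group was itself PMA-treated. DCVC, S-(1,2-dichlorovinyl)-L-cysteine, is a metabolite of the solvent trichloroethylene. LPS, lipopolysaccharide, is a component of the outer membrane of Gram-negative bacteria that macrophages sense. For the next 24 h, Control and LPS cells received medium, and DCVC and DCVC_LPS cells received DCVC at 5 µM. The protocol then gives a medium change, with no group excepted, and LPS at 100 ng/mL for 4 h in the wells of the LPS and DCVC_LPS groups. When Control and DCVC cells were collected is not stated. Each group had 6 libraries, lettered A to F. Whether the letters stand for separate cultures is not said in the labels, and the spread behind every p-value is that between these libraries, which may be technical. All results are from 1 cell line, and in bulk RNA fewer cells of a type and less RNA per cell cannot be told apart.

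Human cells keep separate sets of synthetases for the ribosomes of the cytosol and for those of the mitochondrion, both encoded in the nucleus. GARS1 and KARS1 each serve both compartments through alternative forms, so the cytosolic group is not purely cytosolic. Some cytosolic enzymes, with the scaffold proteins AIMP1, AIMP2 and EEF1E1 (AIMP3), form the multisynthetase complex. Many cytosolic synthetase genes are known targets of ATF4, the transcription factor that rises when amino acids are short, and WARS1 is a classical interferon-gamma induced gene in macrophages.

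Promoter windows were read from RefSeq on GRCh38.p14, from 250 bases before to 50 bases after a start site. An entry was found for 29 of the 34 genes, and LARS1, VARS1, YARS1, AARS2 and VARS2 had none. The C/EBP-ATF response element was searched as TGATGNAAN on both strands. It occurred in the first window of 7 of the 29 genes (24.1%), and in 3.67% of the first windows of 27305 genes. Those genes were AARS1, CARS1, IARS1, MARS1, NARS1, TARS1 and YARS2, and GARS1 held it in its second window. The stretches of 40 bases around these matches are shown because ATF4 and its partners are known to bind this element. Capitals mark the match and each stretch is written 5′ to 3′ on the strand of the gene.
AARS1, chr16:70289671-70289710, minus strand: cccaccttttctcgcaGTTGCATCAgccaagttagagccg
CARS1, chr11:3057403-3057442, minus strand: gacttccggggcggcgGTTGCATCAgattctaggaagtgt
GARS1, chr7:30594828-30594867, plus strand: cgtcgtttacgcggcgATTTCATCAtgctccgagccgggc
IARS1, chr9:92293688-92293727, minus strand: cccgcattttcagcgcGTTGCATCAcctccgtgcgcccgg
MARS1, chr12:57488047-57488086, plus strand: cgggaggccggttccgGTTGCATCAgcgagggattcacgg
NARS1, chr18:57621807-57621846, minus strand: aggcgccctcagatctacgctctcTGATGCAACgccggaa
TARS1, chr5:33440950-33440989, plus strand: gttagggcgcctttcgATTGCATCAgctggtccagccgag
YARS2, chr12:32756071-32756110, minus strand: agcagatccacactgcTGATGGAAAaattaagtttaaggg

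Of these 8 genes, LPS against Control raised 6 and lowered AARS1 and NARS1, while over all genes tested 37.8% were raised and 40.6% lowered. Scaled to equal library totals, 4 were raised, AARS1, NARS1 and CARS1 (-0.30) lowered, and TARS1 (0.03) was not called. Over all genes the shares on that scale were 22.4% raised and 59.5% lowered. The other motifs searched, on both strands and counted also where they overlapped, were the antioxidant response element core (TGACNNNGC), the interferon-stimulated response element core (GAAANNGAA) and the gamma-activated site (TTCNNNGAA). They occurred in the first windows of 17.2%, 10.3% and 13.8% of the 29 genes, against 13.56%, 8.29% and 7.88% of all 27305 genes. The second window of WARS1, which had the largest change of the 34 for LPS against Control, held a gamma-activated site and an interferon-stimulated response element core. They are the capitals in the stretch from 155 to 36 bases before that start site. HARS1 and HARS2 are transcribed away from each other from start sites 85 bases apart, and the bases between those sites, which hold none of the 4 motifs, are shown on the strand of HARS2. A match describes letters only.
WARS1, chr14:100375383-100375502, minus strand: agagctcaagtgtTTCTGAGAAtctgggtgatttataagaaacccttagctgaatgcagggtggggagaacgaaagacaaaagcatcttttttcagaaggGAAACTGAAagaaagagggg
HARS1 to HARS2, chr5:140691371-140691454, plus strand: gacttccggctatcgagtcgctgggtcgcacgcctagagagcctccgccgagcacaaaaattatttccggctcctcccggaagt

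Depth was similar across groups, with 18478618 to 30107819 reads in named genes per library. The values are normalized counts, that is, reads divided by a factor per library that the authors set. The group means of their totals were lowest in DCVC, at 17774466 ± 305501 (SD, n = 6), and highest in LPS, at 29427331 ± 839114, with Control at 21135356 ± 563705 and DCVC_LPS at 21831254 ± 235112. Scaling the libraries to equal totals therefore shifts every change, and the median log2 change of all genes tested moves from -0.03 to -0.50 for LPS against Control. The counts of changed synthetases in each comparison are given on both scales, while those within pairs of letters, with the letter as a block or without a library are on the deposited scale. The myeloid markers PTPRC, SPI1, TYROBP, ITGAM, CSF1R, LYZ, CD14, CD33 and CD68 were above 0 in all 24 libraries, CD68 only at 1.48 to 33.3. Their summed level was highest in Control (69630 to 82510), lower in DCVC (48830 to 55880) and lowest in LPS (32920 to 36330) and DCVC_LPS (34750 to 39250). CSF1R carried most of the fall with LPS, from a mean of 32211 in Control to 9693 in LPS. The markers did not move as 1: LYZ had a mean of 1455 in Control and 3223 in DCVC, SPI1 was highest in DCVC_LPS at 8701 (6967 in Control), and CD68 had 5.28 in Control and 25.5 in DCVC_LPS. The part of these shifts in the synthetase changes was not tested. Of 10 markers of other cells, HBB was at 0 in all 24 libraries, and CD3E, MS4A1 and EPCAM were above 0 in at most 3 libraries. The summed level of the 10, most of it from PECAM1, which monocytes also express, was again highest in Control (4456 to 7297), then DCVC (1705 to 2457), LPS (1380 to 2114) and DCVC_LPS (764 to 1138).

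Levels of different genes are compared as normalized count per kilobase of merged exons (GENCODE 29). In Control, EPRS1, a fused enzyme that charges glutamate and proline tRNAs, stood highest at 1381 ± 302 (SD, n = 6). NARS1, for asparagine, followed at 1015 ± 92.5, then FARSA, the catalytic subunit for phenylalanine, at 910 ± 209, and SARS1, for serine, at 876 ± 71. IARS2, the mitochondrial isoleucine enzyme, came next at 855 ± 47.3 per kilobase. From NARS1 to IARS2 each differed from the next by less than the larger of their SDs, so their order is not resolved, and per kilobase of the longest transcript SARS1 stood first at 1787. The lowest were SARS2 at 18.2 ± 2.31 and VARS2, for mitochondrial valine, at 8.49 ± 0.974. Both overlap another gene on the same strand, and whether this lowered their counts was not tested. The order moved with the treatments: in LPS, WARS1 led at 2563 ± 477 per kilobase, from place 13 in Control at 364 ± 34.6.

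Summed per kilobase, the 18 cytosolic genes exceeded the 16 mitochondrial genes most in LPS, by 5.12 ± 0.278-fold (SD, n = 6). The ratio was 3.37 ± 0.242 for Control, 2.98 ± 0.104 for DCVC and 3.38 ± 0.139 for DCVC_LPS. The LPS libraries, at 4.80 to 5.54, lay above all others, whose highest value was 3.65. This ratio lies within a library and does not depend on the scaling. As a share of the reads in named genes, the cytosolic enzymes took 0.234% ± 0.0313 in Control and 0.293% ± 0.0145 in LPS. Without WARS1 those shares were 0.223% ± 0.0305 and 0.238% ± 0.0173, so WARS1 alone supplied most of the gain. The mitochondrial share was lowest in LPS at 0.0418% ± 0.00374 and highest in DCVC at 0.064% ± 0.00238, with Control at 0.0556% ± 0.00378 and DCVC_LPS at 0.0503% ± 0.00212.

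**Figure D1:**
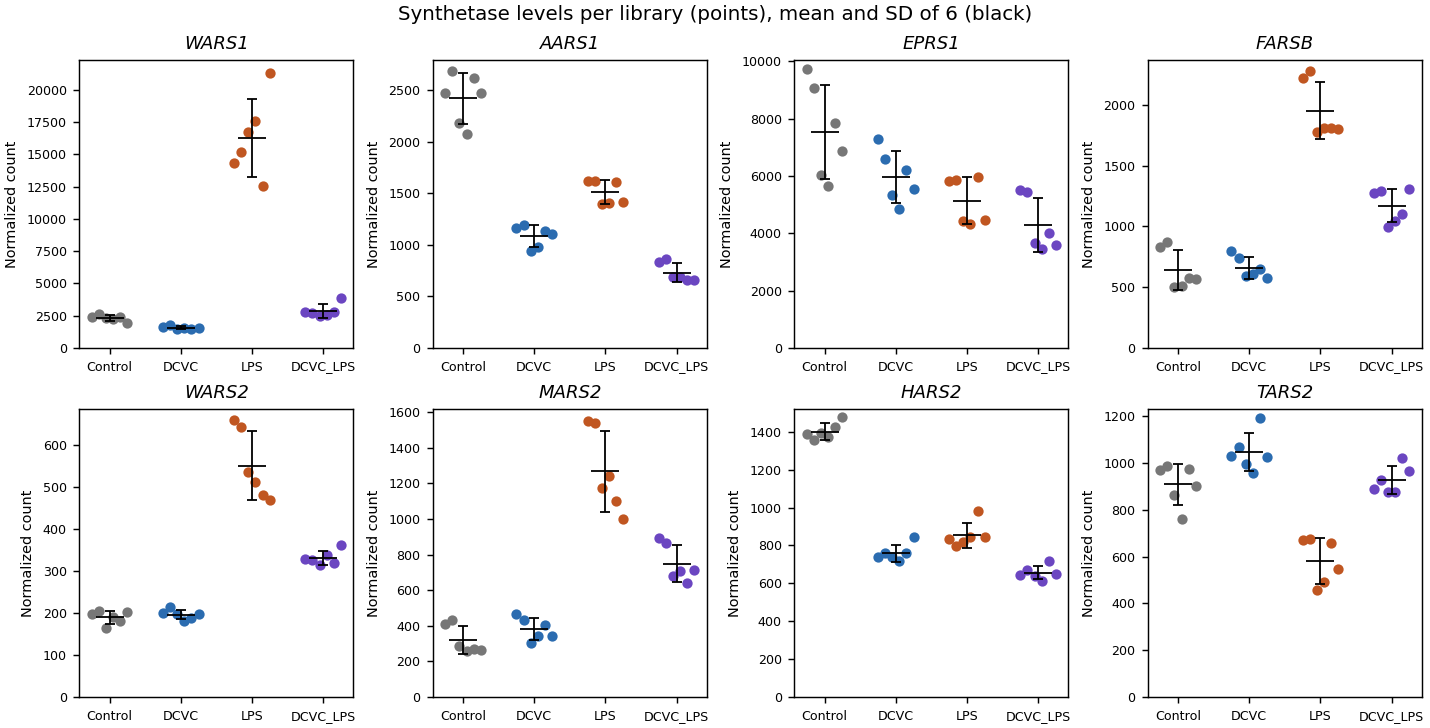
Normalized count (vertical axis, linear, from 0) of 8 synthetases in each of the 24 libraries, by group (horizontal axis), with the mean and SD of 6 libraries in black. WARS1, FARSB, WARS2 and MARS2 stand highest in LPS and fall back in DCVC_LPS, AARS1 and HARS2 are highest in Control, and TARS2 is lowest in LPS.

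LPS against Control compares cells with and without 4 h of LPS, both without DCVC. Most cytosolic enzymes rose (15 of 18, and 11 at equal totals), led by WARS1. The mitochondrial enzymes had 5 raised and 6 lowered (4 and 11 at equal totals), shares near those of all genes on both scales. By limma with Benjamini-Hochberg adjustment over all 13900 genes at 0.05, 15 of 18 cytosolic genes were raised and 3 lowered, with a median log2 change of 0.80. Of the 16 mitochondrial genes, 5 were raised, 6 lowered and 5 not called, with a median of -0.02. Over all genes tested, 37.8% were raised and 40.6% lowered. At equal totals the cytosolic split was 11 raised and 5 lowered with a median of 0.33, and the mitochondrial split 4 and 11 with a median of -0.50, against 22.4% and 59.5% of all genes and a median of -0.50.

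WARS1 charges tryptophan tRNA. Its normalized counts had a lowest, median and highest value of 1965, 2328 and 2644 in Control and of 12585, 15963 and 21326 in LPS. The 6 LPS libraries lay far above every Control library. The log2 change was 2.80 ± 0.11 (SE), 6.97-fold, with an adjusted p of 1.9e-17.

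FARSB is the beta subunit of the phenylalanine enzyme, whose active form pairs it with FARSA. It counted 503, 572 and 873 (lowest, median, highest) in Control and 1781, 1811 and 2281 in LPS. The groups were apart, and FARSB rose by a log2 change of 1.63 ± 0.13 (adjusted p = 1.64e-11). FARSA rose less, by 0.79 ± 0.11, so the log2 ratio of FARSB to FARSA moved from -1.79 ± 0.13 (SD, n = 6) in Control to -0.95 ± 0.04 in LPS, with no overlap between the groups. IARS1, the isoleucine enzyme of the complex, counted 2057, 2319 and 2774 in Control and 4497, 4993 and 5551 in LPS. No libraries overlapped, and it rose by 1.10 ± 0.10 (adjusted p = 4.31e-10). The other 12 raised cytosolic genes had log2 changes from 0.16 (HARS1) to 1.06 (VARS1). At equal totals CARS1 and HARS1 were lowered, at -0.30 and -0.31, and RARS1 (0.06, adjusted p = 0.673) and TARS1 (0.03, adjusted p = 0.666) were not called.

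The 3 cytosolic genes that fell charge alanine, glutamate and proline, and asparagine. AARS1 counted 2075, 2475 and 2688 in Control and 1392, 1509 and 1618 in LPS. Every LPS library was below every Control library, and the log2 change was -0.68 ± 0.08 (adjusted p = 5.97e-08). EPRS1 counted 5640, 7345 and 9724 in Control and 4317, 5133 and 5947 in LPS, a change of -0.54 ± 0.15 (adjusted p = 0.00174) with overlapping groups. In Control, EPRS1 was highest in libraries A (9724) and B (9075) and lowest in C (6042) and D (5640). NARS1 counted 3598, 4154 and 4637 in Control and 3225, 3439 and 4059 in LPS, an overlapping change of -0.24 ± 0.07 (adjusted p = 0.00338).

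Among mitochondrial genes, the methionine enzyme MARS2 rose most. It counted 256, 276 and 432 in Control and 1000, 1207 and 1552 in LPS, with no overlap, for a log2 change of 2.00 ± 0.14 and an adjusted p of 2.76e-12. WARS2, which charges the mitochondrial tryptophan tRNA, counted 163, 194 and 203 in Control and 468, 523 and 659 in LPS. That was a change of 1.53 ± 0.08 (adjusted p = 1.63e-14), again without overlap, so both tryptophan enzymes rose. VARS2 counted 56.2, 73.1 and 79.2 in Control and 127, 146 and 183 in LPS, a change of 1.05 ± 0.14 (adjusted p = 1.63e-07) between groups that did not overlap. YARS2 (tyrosine) and EARS2 (glutamate) rose by 0.71 and 0.58, EARS2 not being called at equal totals (0.11, adjusted p = 0.373).

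Of the mitochondrial genes that fell, the cysteine enzyme CARS2 counted 887, 936 and 1014 in Control and 470, 548 and 624 in LPS. Its log2 change was -0.78 ± 0.07 (adjusted p = 1.57e-10), and the groups did not overlap. HARS2, for histidine, counted 1355, 1391 and 1477 in Control and 795, 838 and 981 in LPS, a change of -0.72 ± 0.05 (adjusted p = 9.16e-12). TARS2, for threonine, counted 761, 936 and 989 in Control and 455, 602 and 676 in LPS, a change of -0.65 ± 0.09 (adjusted p = 5.03e-07). For HARS2 and TARS2, too, every LPS library lay below every Control library. SARS2, FARS2 and AARS2 changed by -0.58, -0.57 and -0.28, and IARS2, LARS2, NARS2, PARS2 and RARS2, at -0.11 to 0.06, were not called but were lowered at equal totals, at -0.41 to -0.59.

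Within libraries A and B, C and D, and E and F taken apart, 14, 14 and 13 cytosolic genes were raised and 3, 3 and 2 lowered. These fits hold fewer libraries, and their shares of all genes are not given here. The FARS2 change was -0.02 within A and B, -0.60 within C and D and -1.08 within E and F, and that of CARS1 was -0.05, 0.27 and 0.30. Of 30 fits that left out 1 library or 1 letter, the call of CARS1 ended in 9 (Control C, D or F, LPS C, D or E, letters C, D or E; adjusted p up to 0.133), of HARS1 in 6 (Control D or F, LPS A or B, letters B or F; up to 0.0932) and of AARS2 in 8 (Control A or B, LPS C or D, letters C to F; up to 0.109).

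**Figure D2:**
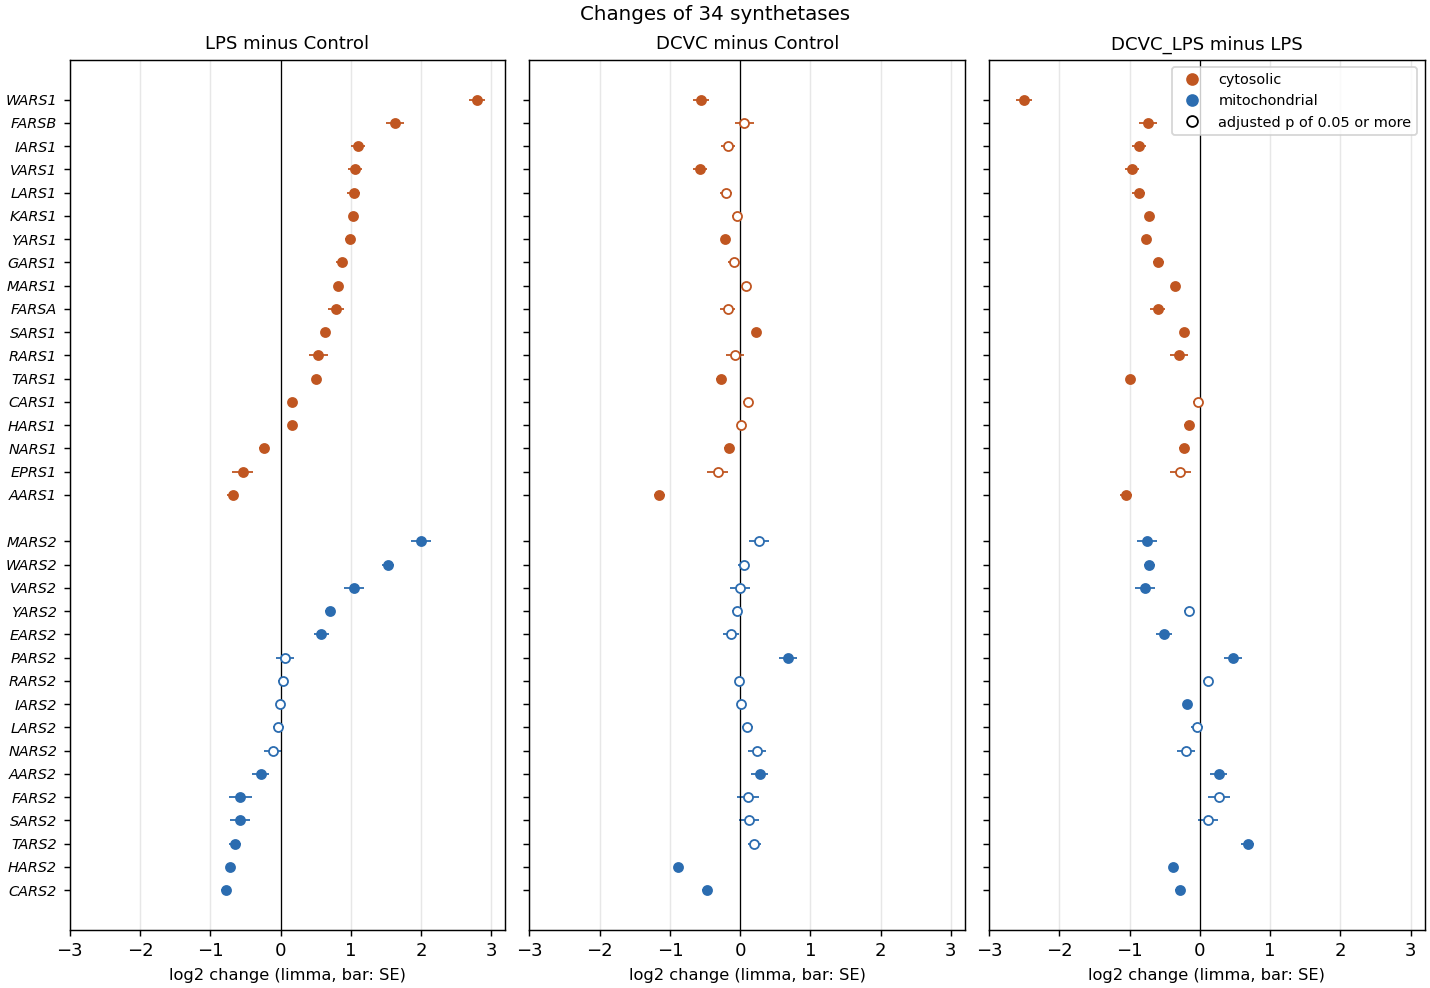
Log2 change with its standard error (horizontal axis) of the 34 synthetases, ordered by the LPS change within cytosolic (orange) and mitochondrial (blue) genes, for LPS against Control, DCVC against Control and DCVC_LPS against LPS. Filled points have an adjusted p under 0.05; the cytosolic points lie mostly right of 0 with LPS (15 of 18 raised, 11 at equal totals) and left of 0 for DCVC_LPS against LPS (16 of 18 lowered, 9 at equal totals).

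DCVC against Control gives the effect of DCVC without LPS. AARS1 and HARS2 fell most and the mitochondrial proline enzyme PARS2 rose most, in each case at equal totals too, while 23 of the 34 synthetases were not called. Counts were 3 raised and 8 lowered, with a median log2 change of -0.03, against 27.5% raised and 32.2% lowered over all genes tested. Of the cytosolic genes 1 was raised and 6 lowered, and of the mitochondrial genes 2 and 2. Scaled to equal totals, the direction of the split turned, to 17 raised and 5 lowered with a median of 0.22, which was also the median of all genes. Over all genes on that scale 46.1% were raised and 20.1% lowered, near the shares of the synthetases.

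AARS1 counted 2075, 2475 and 2688 in Control and 937, 1120 and 1196 in DCVC. No library overlapped, and the log2 change was -1.15 ± 0.08 (SE), 2.23-fold lower, with an adjusted p of 3.07e-11. It was also lower at equal totals, by a log2 change of -0.91. VARS1, the valine enzyme, counted 4168, 4956 and 6679 in Control and 3004, 3410 and 3696 in DCVC, a change of -0.57 ± 0.10 (adjusted p = 2.86e-05). WARS1 counted 1484, 1509 and 1804 in DCVC, all below Control, a change of -0.56 ± 0.11 (adjusted p = 9.81e-05). TARS1, YARS1 and NARS1 were lowered by 0.28 or less in size, and at equal totals these 3 were no longer called.

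SARS1 was the 1 cytosolic gene raised, where at equal totals 6 were. It counted 3022, 3415 and 3714 in Control and 3832, 3907 and 4122 in DCVC, a small change of 0.23 ± 0.05 (adjusted p = 0.000467) without overlap.

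HARS2 counted 720, 748 and 846 in DCVC, far below the lowest Control library at 1355. The log2 change was -0.88 ± 0.05 (adjusted p = 2.04e-12), while its neighbour HARS1, at 0.01 ± 0.06, was not called, though at equal totals it was raised (0.26). CARS2 counted 635, 674 and 746 in DCVC, also below every Control library, a change of -0.47 ± 0.07 (adjusted p = 2.81e-06). PARS2 counted 100, 122 and 169 in Control and 187, 204 and 240 in DCVC, a change of 0.68 ± 0.13 (adjusted p = 0.000101) without overlap. AARS2 counted 872, 1030 and 1263 in Control and 1166, 1277 and 1355 in DCVC, an overlapping change of 0.28 ± 0.12 (adjusted p = 0.0364). The cytosolic and mitochondrial alanine enzymes therefore went opposite ways, at equal totals as well.

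With the letter as a block the raised count was 6, adding MARS2 (adjusted p = 0.00222), NARS2 (0.0157) and TARS2 (0.00638), and EPRS1, FARSA, IARS1 and LARS1 became lowered (2.26e-05, 0.0326, 0.00321 and 0.00479). Without Control library B the raised count was also 6. The shares of all genes in that fit and in the block fit are not given here. Of 30 fits without 1 library or letter the call of YARS1 ended in 2 (letters C or E), of AARS2 in 10 (Control C, D or F, DCVC B, E or F, letters C to F) and of NARS1 in 14 (Control A, B, E or F, DCVC B, C, D or F, DCVC_LPS E, letters A, B, C, E or F).

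DCVC_LPS against LPS shows how LPS-treated cells with prior DCVC differed from those without. Of the cytosolic synthetases 16 of 18 were lower, 9 at equal totals, WARS1 by far the most, and the mitochondrial threonine, proline and alanine enzymes were higher on both scales. Of the 18 cytosolic genes, 16 were lowered (median log2 change -0.66), and the other 2, CARS1 at -0.03 and EPRS1 at -0.28, were not called. Of the 16 mitochondrial genes, 7 were lowered and 3 raised (median -0.17). Over all genes tested, 33.3% were raised and 39.4% lowered. At equal totals the cytosolic split was 4 raised and 9 lowered (median -0.23). The mitochondrial split turned, to 9 raised and 3 lowered (median 0.26). Over all genes at equal totals 54.5% were raised and 21.9% lowered (median 0.36), so the mitochondrial shares lay near those of all genes.

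WARS1 counted 12585, 15963 and 21326 in LPS and 2451, 2742 and 3888 in DCVC_LPS. The highest DCVC_LPS library was thus below the lowest LPS library by a wide margin, and the log2 change was -2.50 ± 0.11, 5.67-fold lower (adjusted p = 1.27e-15). At equal totals it was -2.07. AARS1 counted 1392, 1509 and 1618 in LPS and 656, 687 and 860 in DCVC_LPS, a change of -1.05 ± 0.08 (adjusted p = 5e-11). TARS1, the cytosolic threonine enzyme, counted 3507, 3708 and 3898 in LPS and 1701, 1830 and 2070 in DCVC_LPS, a change of -0.99 ± 0.06 (adjusted p = 7.62e-13). None of these 3 genes had overlapping groups. VARS1, IARS1 and LARS1 followed at -0.96, -0.87 and -0.87.

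TARS2, in contrast to TARS1, was raised: it counted 455, 602 and 676 in LPS and 876, 910 and 1024 in DCVC_LPS. The groups were apart and the log2 change was 0.68 ± 0.09 (adjusted p = 3.52e-07). PARS2 counted 112, 125 and 174 in LPS and 161, 188 and 217 in DCVC_LPS, an overlapping change of 0.47 ± 0.13 (adjusted p = 0.00239). AARS2 counted 631, 857 and 1105 in LPS and 912, 1038 and 1149 in DCVC_LPS, an overlapping change of 0.27 ± 0.12 (adjusted p = 0.0368).

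The mitochondrial genes with the largest falls were VARS2, MARS2 and WARS2. VARS2 counted 71, 92.2 and 101.1 in DCVC_LPS, all below LPS, a change of -0.78 ± 0.14 (adjusted p = 1.67e-05). MARS2 counted 639, 711 and 891 in DCVC_LPS, likewise below every LPS library, a change of -0.75 ± 0.14 (adjusted p = 4.85e-05). WARS2 counted 313, 327 and 361 in DCVC_LPS, again apart from LPS, a change of -0.72 ± 0.08 (adjusted p = 3.65e-08). LPS against Control and DCVC_LPS against LPS share the LPS libraries.

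Within libraries A and B, C and D, and E and F, 15, 16 and 14 cytosolic genes were lowered, in fits whose shares of all genes are not given here. Of 30 fits without 1 library or letter, the call of HARS1 ended in 5 (DCVC_LPS C, LPS A or B, letters A or B), of AARS2 in 10 (DCVC_LPS A, B or E, LPS C, D or E, letters C to F) and of RARS1 in 10 (DCVC_LPS C to F, LPS A or B, letters B to E). With the letter as a block EPRS1, NARS2 and YARS2 were also lowered (adjusted p = 8e-05, 0.0334 and 0.0379).

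DCVC_LPS against DCVC gives the LPS change in cells that had received DCVC first. Of the 34 synthetases 15 were raised and 11 lowered, against 29.9% raised and 32.2% lowered over all genes. The cytosolic genes were 12 raised and 4 lowered (median log2 change 0.36) and the mitochondrial genes 3 and 7 (median -0.17). Under equal totals the overall split turned, to 6 raised and 16 lowered, with cytosolic genes at 3 and 6. The shares of all genes above are on the deposited scale, and this turn was not set against all genes. WARS1 counted 1484, 1509 and 1804 in DCVC and 2451, 2742 and 3888 in DCVC_LPS, a change of 0.86 ± 0.11 (adjusted p = 2.15e-07). FARSB counted 572, 629 and 802 in DCVC and 996, 1189 and 1306 in DCVC_LPS, a change of 0.83 ± 0.13 (adjusted p = 4.06e-06). Neither gene had overlapping groups.

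MARS2 counted 306, 373 and 465 in DCVC and 639, 711 and 891 in DCVC_LPS, a change of 0.98 ± 0.14 (adjusted p = 1.86e-06). WARS2 counted 180, 197 and 213 and then 313, 327 and 361, a change of 0.76 ± 0.08 (adjusted p = 2.53e-08). Both were thus raised by LPS after DCVC also, with no overlap. AARS1 was lowered, at -0.57 ± 0.08 (adjusted p = 1.78e-06, 937 to 1196 against 656 to 860), and EPRS1, at -0.49 ± 0.15 (0.00485, 4834 to 7301 against 3460 to 5494). CARS2 was lowered, at -0.59 ± 0.07 (6.43e-08, 635 to 746 against 395 to 512) and SARS2, at -0.59 ± 0.14 (0.000907, 44.6 to 80.9 against 33.3 to 51.1). With the letter as a block EARS2 and RARS2 were also raised and LARS2 and TARS2 also lowered, at adjusted p of 0.0451, 0.0343, 0.0116 and 0.0167. Of 30 fits without 1 library or letter, the call of AARS2 ended in 9 (DCVC B, E or F, DCVC_LPS C, D or F, letters C, E or F), of FARS2 in 9 (DCVC E or F, DCVC_LPS B, C or E, letters B, C, E or F) and of RARS1 in 12 (DCVC C to F, DCVC_LPS A, B or F, letters B to F).

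**Figure D3:**
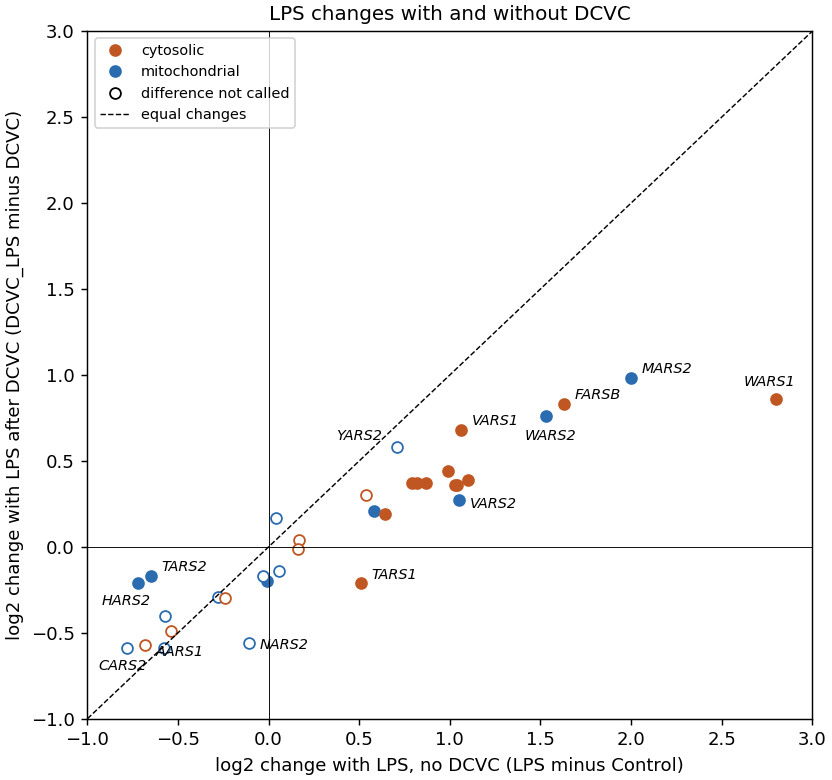
Log2 change with LPS in cells without DCVC (horizontal axis) against that in cells given DCVC first (vertical axis) for the 34 synthetases, which share no libraries; the dashed line marks equal changes and filled points have a called difference. WARS1 lies farthest below the line (2.80 against 0.86), and HARS2 and TARS2 are the called points above it (with CARS2 and RARS2 at equal totals).

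Whether the LPS change itself differed with DCVC was tested as an interaction, the LPS change with DCVC minus that without. It was lower for 17 of the 34 synthetases and higher for 2, against 23.7% lower and 22% higher over all genes tested. At equal totals it was lower for 13 and higher for 4. The shares of all genes are on the deposited scale, and the counts at equal totals were not set against all genes. Of the 18 cytosolic genes 12 were lower (median log2 difference -0.45, highest value 0.10), and of the mitochondrial genes 5 were lower and 2 higher (median -0.13). With equal totals the cytosolic count was 10 lower (highest value 0.29), and the mitochondrial count 3 lower and 4 higher. WARS1 had the largest difference of the 34, -1.94 ± 0.15 (adjusted p = 6.79e-10), its LPS change being 2.80 without and 0.86 with DCVC. FARSB followed among cytosolic genes at -0.80 ± 0.18 (adjusted p = 0.000796).

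TARS1 differed in sign between the arms: its LPS change was 0.51 without DCVC (0.03 and not called at equal totals) and -0.21 with DCVC, a difference of -0.72 ± 0.09 (adjusted p = 5.07e-07). MARS2 and VARS2 were the mitochondrial genes with the largest lower differences, at -1.02 ± 0.20 (adjusted p = 0.000212) and -0.78 ± 0.19 (0.00193). HARS2 had a higher difference, 0.51 ± 0.08 (adjusted p = 9.91e-06), with LPS changes of -0.72 without and -0.21 with DCVC. TARS2 had one of 0.48 ± 0.13 (adjusted p = 0.00385), with LPS changes of -0.65 without and -0.17, not called, with DCVC. AARS1, which both agents lowered, had a difference of 0.10 ± 0.12 that was not called (adjusted p = 0.5), so its LPS change with DCVC, -0.57, was not shown to differ from that without, -0.68.

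Within libraries E and F, a fit of fewer libraries whose shares of all genes are not given here, the lower count was 7 and the higher count 0. Of 30 fits without 1 library or letter the calls of EARS2 and IARS2 each ended in 19, of VARS1 in 7 (Control D or F, DCVC_LPS C, LPS B, letters A, C or D) and of FARSA in 4 (letters A, C, D or E). With the letter as a block HARS1, NARS2 and RARS1 were also lower and CARS2 also higher (adjusted p = 0.0329, 0.0034, 0.00494 and 0.039).

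The ratio of the cytosolic to the mitochondrial transcript for 1 amino acid, taken within each library, does not move with the scaling, and 14 amino acids had both. For tryptophan the log2 ratio of WARS1 to WARS2 had a lowest, median and highest value of 3.28, 3.63 and 3.81 in Control and of 4.44, 4.84 and 5.51 in LPS. It was 2.91, 2.99 and 3.08 in DCVC and 2.92, 3.07 and 3.43 in DCVC_LPS, so the LPS libraries overlapped no other group. For threonine the log2 ratio of TARS1 to TARS2 was 1.52 ± 0.09 (SD, n = 6) for Control, 1.04 ± 0.11 for DCVC, 2.68 ± 0.29 for LPS and 1.01 ± 0.18 for DCVC_LPS. Here, too, the LPS libraries lay above all others.

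For alanine the log2 ratio of AARS1 to AARS2 was 1.22 ± 0.10 in Control and 0.82 ± 0.25 in LPS, but -0.22 ± 0.09 in DCVC and -0.51 ± 0.16 in DCVC_LPS. In every library of both DCVC groups the mitochondrial transcript had the higher normalized count. For histidine HARS1 to HARS2 rose from 0.11 ± 0.13 in Control to 1.01 ± 0.12, 0.99 ± 0.22 and 1.21 ± 0.07 in DCVC, LPS and DCVC_LPS. All 3 treated groups lay above Control without overlap.

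Methionine went the other way from tryptophan. The log2 ratio of MARS1 to MARS2 was lowest in LPS at 1.41 ± 0.30 and next in DCVC_LPS at 1.80 ± 0.21, against 2.59 ± 0.26 in Control and 2.41 ± 0.18 in DCVC. All LPS libraries lay below all Control libraries, while DCVC_LPS (up to 2.14) just overlapped DCVC (from 2.12). For isoleucine IARS1 to IARS2 was 0.50 ± 0.07 in LPS and negative elsewhere, at -0.60 ± 0.13 in Control, -0.78 ± 0.16 in DCVC and -0.19 ± 0.10 in DCVC_LPS. For valine VARS1 to VARS2 was 6.12 ± 0.36 in Control and 6.13 ± 0.17 in LPS, both genes having risen by about the same log2 change (1.06 and 1.05).

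**Figure D4:**
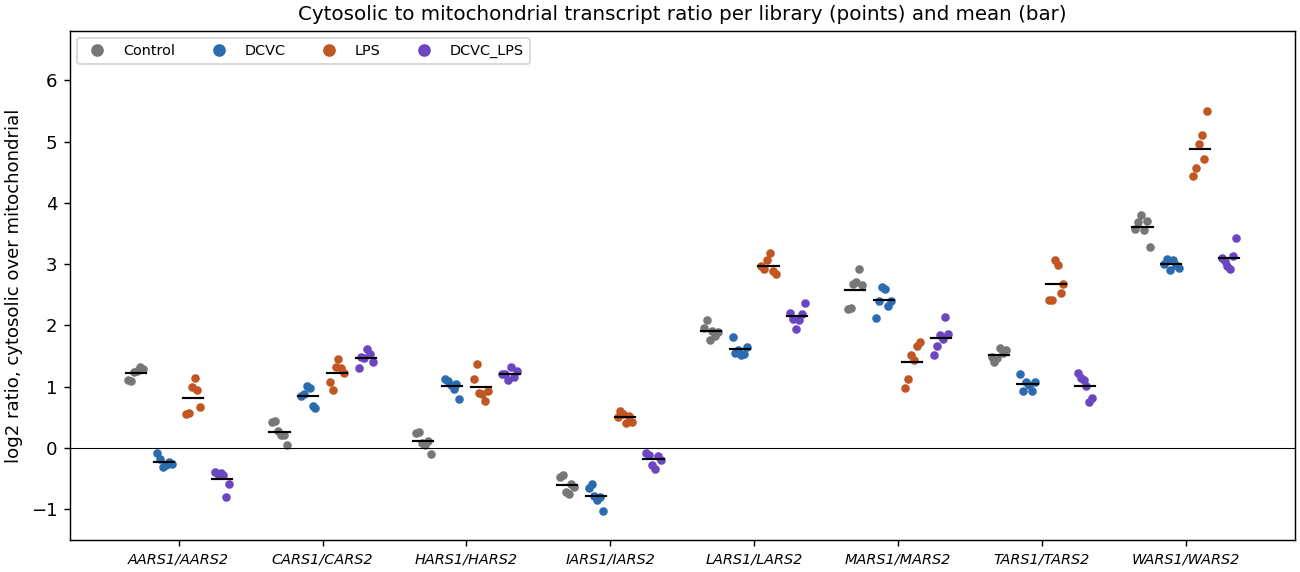
Log2 ratio of the cytosolic to the mitochondrial transcript (vertical axis) in each library for 8 of the 14 amino acids with both, by group (colour), with group means as bars. WARS1 to WARS2, TARS1 to TARS2 and IARS1 to IARS2 peak in LPS, MARS1 to MARS2 is lowest in LPS, and AARS1 to AARS2 falls below 0 in DCVC and DCVC_LPS.

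Grouped by assembly, the 6 multisynthetase complex enzymes analysed here (EPRS1, IARS1, KARS1, LARS1, MARS1 and RARS1) had a median log2 change of 0.92 with LPS, 5 raised (4 at equal totals) and EPRS1 lowered. Over all genes 37.8% were raised and 40.6% lowered, or 22.4% and 59.5% at equal totals. The 12 other cytosolic genes had a median of 0.72, with 10 raised and 2 lowered (7 and 4 at equal totals). With DCVC alone the 6 complex enzymes lay between -0.32 and 0.09 and missed the threshold, but with the letter as a block EPRS1, IARS1 and LARS1 were lowered (adjusted p = 2.26e-05, 0.00321 and 0.00479). At equal totals 2 of the 6 were raised, and 6 of the 12 others were lowered (3 at equal totals, with 4 raised), against 32.2% of all genes lowered (20.1% at equal totals, with 46.1% raised). For DCVC_LPS against LPS, 5 of the 6 and 11 of the 12 were lowered, with medians of -0.54 and -0.67 (at equal totals 3 of 6, and 6 of 12 with 4 raised), against 39.4% of all genes (21.9% at equal totals, with 54.5% raised). By catalytic fold, class I enzymes, which include IARS1, WARS1 and MARS2, were raised by LPS in 13 of 18 cases and lowered in 2 (10 and 6 at equal totals). Of the 16 class II enzymes, which include AARS1, HARS2 and TARS2, 7 were raised and 7 lowered (5 and 10 at equal totals). EPRS1 was counted with class I for its glutamyl part, its prolyl part being class II, and no difference between these groupings was tested.

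The 3 scaffold genes of the complex were raised by LPS, but only AIMP2 also at equal totals. AIMP2 counted 351, 463 and 715 in Control, 984, 1141 and 1299 in LPS and 632, 698 and 817 in DCVC_LPS. LPS raised it by 1.23 ± 0.14 (adjusted p = 1.39e-08) and DCVC_LPS was below LPS by -0.69 ± 0.14 (9.36e-05), neither pair of groups overlapping. AIMP1 changed by 0.59 ± 0.06 (4.56e-09) and -0.50 ± 0.06 (1.29e-07) in these comparisons, and EEF1E1, at 59.9 to 133 in Control and LPS, by 0.46 ± 0.15 (0.00842) and -0.42 ± 0.15 (0.0146). At equal totals the values for AIMP1 (0.11 and -0.07), EEF1E1 (-0.02 and 0.00) and, for DCVC_LPS against LPS, AIMP2 (-0.26) were not called. The lower EEF1E1 call ended in 3 of 30 fits without 1 library or letter.

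XPOT encodes the exporter of tRNA from the nucleus. It counted 1255, 1373 and 1511 in Control, 1175, 1364 and 1511 in LPS and 794, 836 and 943 in DCVC_LPS. The LPS difference of -0.02 ± 0.06 was not called (-0.50 and lowered at equal totals), and DCVC_LPS was below LPS by -0.69 ± 0.06 (adjusted p = 9.79e-10). SEPSECS, the last enzyme of selenocysteine-tRNA synthesis, fell by -0.98 ± 0.10 with LPS (2.8e-09) and was 0.55 ± 0.10 higher in DCVC_LPS than in LPS (3.33e-05). GATB, a subunit of the mitochondrial glutamine amidotransferase, had values of -0.45 ± 0.08 (2.85e-05) and 0.89 ± 0.08 (9.66e-10) in these comparisons. Of the 16 tRNA charging partners, LPS raised 9 and lowered 4 (median 0.45), against 37.8% and 40.6% of all genes, and at equal totals 3 and 7, against 22.4% and 59.5%. DCVC_LPS against LPS had 4 raised and 7 lowered (median -0.15), against 33.3% and 39.4%, which turned to 9 and 1 at equal totals, against 54.5% and 21.9%.

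The amino acid response genes did not move as 1 group. ATF4 counted 5424, 6129 and 6757 in Control, 3589, 4203 and 4547 in DCVC, 7636, 9442 and 10783 in LPS and 6039, 6714 and 7577 in DCVC_LPS. LPS raised it by 0.60 ± 0.08 (adjusted p = 5.12e-07) and DCVC lowered it by 0.53 (9.18e-06), without overlap. At equal totals the first was 0.13 and not called (adjusted p = 0.153). TRIB3, an ATF4 and CHOP target, counted 495, 531 and 687 in Control and 225, 262 and 355 in LPS, a change of -0.97 ± 0.13 (3.73e-07) without overlap. DDIT3, which encodes CHOP, changed by -0.35 ± 0.12 with LPS (0.0107) and was 0.61 ± 0.12 higher in DCVC_LPS than in LPS (6.61e-05).

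Of 25 tested genes of that list, LPS raised 13 and lowered 9 (median 0.34), turning to 10 and 11 at equal totals. Over all genes the shares were 37.8% and 40.6%, and 22.4% and 59.5% at equal totals. DDIT4 counted 85.2, 116 and 160 in Control and 1233, 1387 and 1461 in LPS. MTHFD2 counted 2066, 2289 and 3313 in Control and 12008, 13550 and 14139 in LPS. SESN2 counted 304, 350 and 458 in Control and 1575, 1654 and 1711 in LPS. EIF4EBP1 went the other way, from 1043, 1221 and 1398 in Control to 253.5, 311.5 and 347.1 in LPS. For these genes the LPS and Control groups did not overlap. DCVC raised 5 and lowered 14 (median -0.51), or 7 and 12 at equal totals, against 27.5% and 32.2% of all genes, or 46.1% and 20.1%. DCVC changed SLC7A5, an amino acid transporter, by -1.71 ± 0.11 (adjusted p = 2.22e-12), PYCR1, of proline synthesis, by -1.95 ± 0.15 (1.25e-10) and the secreted stress protein gene STC2 by -3.74 ± 0.32 (6.02e-10). It raised the cystine transporter gene SLC7A11 by 4.18 ± 0.31 (5.18e-11). Among the 12 synthetases often listed as ATF4 targets, LPS raised 9 and lowered 3 (median 0.73; 7 and 4 at equal totals), and it raised all 6 other cytosolic synthetases (median 0.91; 4 raised and 1 lowered at equal totals). DCVC lowered 5 of the 12 (2 at equal totals) and 1 of the other 6, VARS1.

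Among 8 interferon-gamma type genes, all were raised by LPS (median log2 change 3.09; 7 at equal totals), and all were lowered in DCVC_LPS against LPS (median -2.01; 8 at equal totals). The shares of all genes were 37.8% raised (22.4% at equal totals) and 39.4% lowered (21.9%). IDO1, which breaks down tryptophan, was listed at 0 in all 6 Control libraries and counted 5024 to 14920 in LPS and 61.3 to 391 in DCVC_LPS. Whether these genes and WARS1 share a cause was not tested.

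Of 14 genes of mitochondrial translation and transcription, LPS raised 8 and lowered 3 (median 0.43), a split that turned to 5 and 7 at equal totals, against 37.8% and 40.6% of all genes, or 22.4% and 59.5%. TFB2M, a mitochondrial transcription factor, rose by 1.27 ± 0.07 (adjusted p = 9.58e-15), while MTIF3, an initiation factor, and GFM2, a ribosome recycling factor, changed by -0.97 ± 0.08 (4.77e-11) and -0.54 ± 0.06 (1.64e-08). For DCVC_LPS against LPS, which shares the LPS libraries, the values of TFB2M, MTIF3 and GFM2 were -0.91 ± 0.07, 0.87 ± 0.08 and 0.87 ± 0.06. DCVC alone raised 10 of the 14 (11 at equal totals), against 27.5% of all genes (46.1%), and lowered TFB2M, which was not called at equal totals. Of the cytosolic elongation factors, all 5 tested were raised by LPS, from 0.26 to 2.07, against 37.8% of all genes, while at equal totals 1 was raised and 1 lowered, against 22.4% and 59.5%. EIF5A, with the highest value, in DCVC_LPS against LPS had a change of -1.12 ± 0.07 (1.2e-12).

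Some synthetases overlap other genes in GENCODE 29. The overlaps below are of whole gene spans, introns included, so they do not show how many counted reads are shared. Whether the counting used the strand is unknown. How far reads of a partner entered or lowered these counts was not tested. MARS2 lies wholly within AC011997.1 on the same strand over 3019 bases, SARS2 shares 15493 bases with AC011455.2 on its own strand, and VARS2 shares 5865 bases with GTF2H4. MARS1 overlaps ARHGAP9 by 13370 and DDIT3 by 982 bases on the other strand, and the log2 ratio of MARS1 to DDIT3 was 1.77 ± 0.24 in Control and 2.94 ± 0.20 in LPS, so the 2 genes did not move alike. HARS2 shares 437 bases with HARS1 on the other strand and 639 with ZMAT2 on its own strand. The log2 ratio of HARS2 to ZMAT2 was 0.19 ± 0.11 in Control and below 0 in the treated groups, at -1.10 ± 0.13 for DCVC, -0.81 ± 0.13 for LPS and -1.59 ± 0.09 for DCVC_LPS. WARS1 overlaps the antisense gene AL157871.4 by 20272 bases, and YARS2 and AARS2 overlap DNM1L and AL353588.1 by 18161 and 13673 bases on the other strand.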

How the data were processed

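RNA was measured by poly-A RNA-seq in 24 THP-1 libraries, 4 groups of 6. The names given per the submitters' processing notes are the build hg38, STAR, featureCounts 1.6.1, DESeq2 1.24.0, R 3.6.0, MultiQC 0.9 and FastQC 0.11.5, listed there with no roles. For STAR's version, the annotation and the strand setting, nothing is given in the sources used here. The table deposited by the authors holds a signal per gene, read from its values as counts divided by a size factor per library. In each library 100% of values were whole multiples of 1 read within 0.1 read (in LPS library A 1 read is worth nearly 1), and there were 18478618 to 30107819 reads per library.

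Entries without a name (19595 of 58381, 0.986% of the values) were left out, and 51 symbols on 2 entries each were summed. Changes were fitted with limma 3.58.1 (R 4.3.3) on log2(value + 1) over all groups, for genes with a mean of at least 10, so a change understates that of low genes. Adjusted p-values are Benjamini-Hochberg over 13900 genes, called under 0.05. The alternatives were edgeR 4.0.16 and DESeq2 1.42.0 on the recovered reads, equal totals, other pseudocounts and filters, only the groups compared, the letter as a block, pairs of letters, and leaving out each library or letter. On the recovered reads edgeR called 5263 genes raised and 5581 lowered for LPS against Control. The limma step alone was run on simulated counts, with known changes placed in the DCVC group and read for DCVC against Control. Libraries of the same letter deviated together across groups, with all 36 correlations of deviations between 0.134 and 0.539 (median 0.33). The other letter of the same pair (A and B, C and D, E and F) gave 0.052 to 0.464 (median 0.286), and other letters -0.45 to 0.034. Of 24 libraries, 20 correlated best with their own letter. The libraries thus went together by pair of letters nearly as much as by letter, and the main fit holds no block for either. The labels call these no batch.

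The enzyme family and the lists were chosen with earlier results of these data known, and the members within the family by symbol. Full values are given for up to 3 largest called rises and falls per compartment, or 2 for DCVC_LPS against DCVC and the interaction. From the other lists some genes are given, not in every comparison those with the smallest adjusted p. WARS1, WARS2, AIMP1, AIMP2, EEF1E1, XPOT, ATF4, DDIT3 and TRIB3 were to be named in any case. ASNS and EEF1G are not analysed here. TARS1 in the interaction, the gene ratios, and DDIT4, MTHFD2, SESN2 and EIF4EBP1 were chosen after their values were seen. All 34 genes were matched to GENCODE 29.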

Additional observations from a re-analysis of the deposited data

Results flagged for a closer look

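In 8 of the 136 groups of 6 libraries looked at, the lowest or highest library stood apart from the other 5 beyond the critical value of Dixon's test, where chance gives about 1 in 20 groups. They were CARS1 in DCVC library F (1051, nearest 1204), GARS1 in LPS library F (2885, nearest 3262), WARS1 in DCVC library B (1804, nearest 1604) and WARS1 in DCVC_LPS library F (3888, nearest 2815). The others were HARS2 in DCVC library F (846.5, nearest 759.1) and LPS library E (981.1, nearest 845.8), VARS2 in Control library E (56.23, nearest 70.86) and YARS2 in LPS library F (737.6, nearest 928.9).

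The LPS change differed with DCVC in the interaction test for 19 synthetases. The log2 differences were -1.94 for WARS1, -0.80 for FARSB, -0.72 for TARS1, -0.70 for IARS1, -0.67 for both KARS1 and LARS1, and -0.55 for YARS1. They were -0.50 for GARS1, -0.45 for both MARS1 and SARS1, -0.42 for FARSA and -0.38 for VARS1. Among mitochondrial genes they were -1.02 for MARS2, -0.78 for VARS2, -0.77 for WARS2, -0.38 for EARS2 and -0.20 for IARS2, with 0.51 for HARS2 and 0.48 for TARS2.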

How the results depend on the processing

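Equal totals had the widest effect. Counts of synthetases there were 16 lowered for LPS against Control, 17 raised and 5 lowered for DCVC against Control, 13 raised and 12 lowered for DCVC_LPS against LPS, 6 raised for DCVC_LPS against DCVC, and 4 higher in the interaction. Over all genes, equal totals gave 22.4% raised and 59.5% lowered for LPS against Control, and 46.1% and 20.1% for DCVC against Control. For DCVC_LPS against LPS these shares were 54.5% and 21.9%. None are given here for DCVC_LPS against DCVC or the interaction. Log2 changes that turned at equal totals and were called on at least 1 of the scales were, for LPS against Control, CARS1 -0.30, HARS1 -0.31, PARS2 -0.41 and RARS2 -0.44. For DCVC against Control they were KARS1 0.20, NARS1 0.09, RARS2 0.24, YARS1 0.04 and YARS2 0.21. For DCVC_LPS against LPS they were CARS1 0.40, CARS2 0.15, HARS1 0.27, HARS2 0.05, IARS2 0.25, LARS2 0.39, MARS1 0.08, NARS1 0.20, RARS1 0.13, SARS1 0.21 and YARS2 0.27, and for DCVC_LPS against DCVC, CARS1 -0.26 and SARS1 -0.11. Within libraries A and B, CARS1 turned to -0.05 for LPS against Control, and 1 synthetase was raised for DCVC_LPS against LPS. Within C and D, DCVC raised 9 and the interaction was higher for 4. Within E and F, DCVC lowered 5, DCVC_LPS against DCVC lowered 7, and the interaction was higher for 0 and lower for 7. Fits within a pair of letters hold fewer libraries, and their shares of all genes are not given here. With the replicate block DCVC raised 6, lowering 12, and the shares of all genes in the block fit are not given here. The block added 18 calls of single genes, given beside the results, and ended none. Per kilobase of the longest transcript the cytosolic to mitochondrial ratio was 3.89, 3.597, 6.70 and 4.27 in Control, DCVC, LPS and DCVC_LPS. Leaving out 1 library or letter gave 18 to 20 raised and 8 to 9 lowered for LPS against Control, 2 to 6 and 6 to 10 for DCVC against Control, 2 to 4 and 21 to 24 for DCVC_LPS against LPS, 14 to 16 and 9 to 12 for DCVC_LPS against DCVC, and 2 to 3 higher and 13 to 18 lower for the interaction. The cause of these shifts was not tested, and the shares of all genes in the fits without 1 library or letter are not given here. With edgeR 161 and with DESeq2 165 of 170 gene results kept their direction and side of the threshold.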
